A study of Arabidopsis thaliana with 50 samples.

Results

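The MYC2 branch of the jasmonate response was followed through 6 genes of Arabidopsis thaliana in the deposited table of 18231 genes: the transcription factor gene MYC2 (AT1G32640), the storage protein genes VSP1 (AT5G24780) and VSP2 (AT5G24770), the amino acid metabolism genes TAT3 (AT2G24850) and CORI3 (AT4G23600), and AT2G38240, which encodes an oxygenase of the family that oxidizes jasmonate. They were chosen by gene identifier as MYC2 and 5 of the genes that jasmonate induces through it, and all 6 were in the table.

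Jasmonates are lipid-derived hormones that leaves make after wounding and under attack. The bioactive hormone, a conjugate of jasmonic acid and isoleucine, joins the receptor COI1 to JAZ repressors, which are then degraded and release MYC2 and related basic helix-loop-helix factors. MYC2 drives a wound and storage programme in which VSP1 and VSP2 are the classic reporters, while a separate branch, run by the ethylene response factors ERF1 and ORA59, drives defensin genes such as PDF1.2a. Salicylic acid, made in infected or dying leaves largely through ICS1, is known to oppose jasmonate responses.

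Plants of accession Col-0 were grown for 7 weeks with 8 h of light per day. They were wild type, the mutant pp2a-b'γ (b'γ), which lacks normal function of the regulatory subunit B'γ of protein phosphatase 2A, the double mutant pp2a-b'γζ (b'γζ), which also affects the related subunit B'ζ, the double mutant pp2a-b'γ sid2 (b'γ sid2), in which a lesion of ICS1 limits salicylic acid synthesis, and pp2a-b'γ carrying P35S:PP2A-B'γ (the complemented line), in which a constitutive viral promoter drives B'γ in place of its own. Fully expanded rosette leaves were split into apical and basal parts, 7 of one kind were pooled per library, and 5 pools per line and leaf part gave 50 libraries in 10 groups. Yellowing and dying tissue was seen in the apical parts of b'γ and not in its basal parts, per the labels' protocols. No agent was applied, and all 3 mutants and the complemented line carry the b'γ lesion.

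What the table gives is the authors' log2 fold change of each line, apical parts against those of wild type, with p-values per gene over all 50 libraries for genotype, leaf part and their interaction. All 4 lines were set against the same wild-type pools, so their values are not independent of one another. The table used here gives neither levels nor values per library, so depth is unknown, no SD between pools is given, and the tissue was not checked against leaf markers. In their place, the p-values and fold changes of a gene bound the SD, on the log2 scale, that its pools can have had, and the largest-error test used the largest SD so allowed. A gene was called, and is said below to have risen or fallen, where its change was at least 2-fold (a log2 of 1) and this test passed at an adjusted p under 0.05. A gene whose lines differ mainly in the apical parts can miss this threshold with a large change, so a miss does not show that a gene did not change. An exact test needs values per library and could not be run. Only genes with an authors' corrected genotype p under 0.05 are listed, so each share given is a share of listed genes.

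Among the genes that check the labels, the authors' deposited table gave B'ζ a log2 fold change of -2.59 in b'γζ, where it fell (adjusted p of 1.02e-18). B'γ itself stood at -0.69 for b'γ, -0.46 for b'γζ, -0.72 for b'γ sid2 and 0.35 for the complemented line. In b'γ, ICS1 rose by 3.18, the salicylic acid marker PR1 by 8.43 and the senescence protease gene SAG12 by 13.02. In b'γ sid2, ICS1, the gene that sid2 disrupts, stood at -0.97 (adjusted p of 1.0), PR1 at -4.32 (adjusted p of 0.264) and SAG12 at -0.02 (adjusted p of 1.0) against wild type, and none was called. Nor was any called in b'γζ (ICS1 0.61, PR1 0.80, SAG12 -0.02) or in the complemented line (0.32, -0.12 and 0.14). From b'γ, ICS1, PR1 and SAG12 fell in b'γζ and the complemented line as well as in b'γ sid2.

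The 250 bases before the annotated start of each gene are shown because MYC2 binds the G-box, CACGTG, and close variants of it in the promoters of its targets. They were read from the RefSeq annotation of TAIR10.1, 5′ to 3′ on the strand of the gene, with matches to CACATG or CACGTT, on either strand, in capitals. The first is MYC2, on the minus strand at chr1:11801408-11801657.
MYC2: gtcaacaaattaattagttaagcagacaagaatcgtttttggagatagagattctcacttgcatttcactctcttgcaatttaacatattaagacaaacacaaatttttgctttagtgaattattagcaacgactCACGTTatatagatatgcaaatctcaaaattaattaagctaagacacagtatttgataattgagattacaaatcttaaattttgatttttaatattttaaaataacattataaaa
The promoters of the neighbours VSP1 (minus strand, chr5:8509202-8509451) and VSP2 (minus strand, chr5:8502225-8502474) are set together so that the stretches they share can be compared.
VSP1: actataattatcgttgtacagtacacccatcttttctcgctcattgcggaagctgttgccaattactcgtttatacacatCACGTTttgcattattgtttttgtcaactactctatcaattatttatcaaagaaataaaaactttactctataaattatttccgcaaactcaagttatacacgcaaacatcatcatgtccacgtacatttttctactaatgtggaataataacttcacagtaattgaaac
VSP2: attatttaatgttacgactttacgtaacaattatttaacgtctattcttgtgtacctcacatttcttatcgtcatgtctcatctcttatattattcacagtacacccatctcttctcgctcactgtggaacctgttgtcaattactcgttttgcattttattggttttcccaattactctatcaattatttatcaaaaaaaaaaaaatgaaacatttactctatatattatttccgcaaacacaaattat
The TAT3 promoter (minus strand, chr2:10585217-10585466) holds a match in the reverse orientation, CATGTG.
TAT3: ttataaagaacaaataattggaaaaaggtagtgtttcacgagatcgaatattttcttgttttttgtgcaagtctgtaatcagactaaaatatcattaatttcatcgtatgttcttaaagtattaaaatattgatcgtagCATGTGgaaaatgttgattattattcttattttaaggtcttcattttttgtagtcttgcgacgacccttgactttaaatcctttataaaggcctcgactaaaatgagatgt
Those of CORI3 (plus strand, chr4:12310129-12310378) and AT2G38240 (minus strand, chr2:16014992-16015241) hold none of the motifs searched.
CORI3: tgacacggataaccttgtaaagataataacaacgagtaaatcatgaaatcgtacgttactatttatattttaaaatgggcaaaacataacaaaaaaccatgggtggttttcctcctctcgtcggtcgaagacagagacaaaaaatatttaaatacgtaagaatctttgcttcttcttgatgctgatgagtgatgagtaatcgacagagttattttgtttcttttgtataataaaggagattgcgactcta
AT2G38240: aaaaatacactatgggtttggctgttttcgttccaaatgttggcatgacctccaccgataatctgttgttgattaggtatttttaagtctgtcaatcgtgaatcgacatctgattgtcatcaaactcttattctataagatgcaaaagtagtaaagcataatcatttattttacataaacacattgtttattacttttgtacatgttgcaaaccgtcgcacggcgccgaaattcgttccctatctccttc

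In the window from 250 bases before to 50 after the start, searched on both strands, the G-box CACGTG was in 0 of the 6 promoters, and 7.68% of the 27443 protein-coding promoters of the annotation hold it. CACGTT was in the promoters of MYC2, 115 bases before the start, and VSP1, 170 bases before it, against 8.95% of all promoters. CACATG was in that of TAT3, 111 bases before the start, against 12.9%. The GCC box GCCGCC, the element bound by factors of the ERF branch, was in 0 of the 6 and in 2.57% of all promoters. A wider window of 1000 bases, chosen after the data were seen, held CACATG in 2 of the 6 promoters and CACGTT in 4, while 37.7% and 23.8% of all promoters held them. A match is a run of letters and was not tested as a binding site.

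MYC2 is a gene of 1 exon on the minus strand of chromosome 1, at 11798119 to 11801407. In the authors' deposited table its log2 fold change was 0.72 for b'γ, 1.39 for b'γζ, 1.57 for b'γ sid2 and 1.43 for the complemented line. It was above wild type in all 4 lines and closest to wild type in b'γ, the line with dying apical parts. MYC2 rose 2.62-fold in b'γζ (95% interval of the log2 change 0.87 to 1.90, adjusted p of 0.000255 in the largest-error test), 2.96-fold in b'γ sid2 (1.05 to 2.08, adjusted p of 1.39e-05) and 2.70-fold in the complemented line (0.92 to 1.95, adjusted p of 0.000339).

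In b'γ, the 1.65-fold difference of MYC2 passed the largest-error test (adjusted p of 0.0462) and was under the 2-fold limit. The complemented line, which carries B'γ again, stood 0.71 above b'γ on the log2 scale (SE 0.25, adjusted p of 0.0574), and b'γ sid2 stood 0.85 above it (adjusted p of 0.0155), again under 2-fold. Between b'γζ, the complemented line and b'γ sid2, neighbouring values of MYC2 differed by 0.04 and 0.13, less than 1 SE of a difference. MYC2 had the narrowest allowed spread of the 6 genes, with an SD between pools from 0.33 to 0.40. The region of MYC2 overlaps AT1G32630 on the opposite strand. The libraries were made with a stranded kit, but whether the counting used strand is not given in the sources used here, and AT1G32630 is not among the listed genes.

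**Figure D1:**
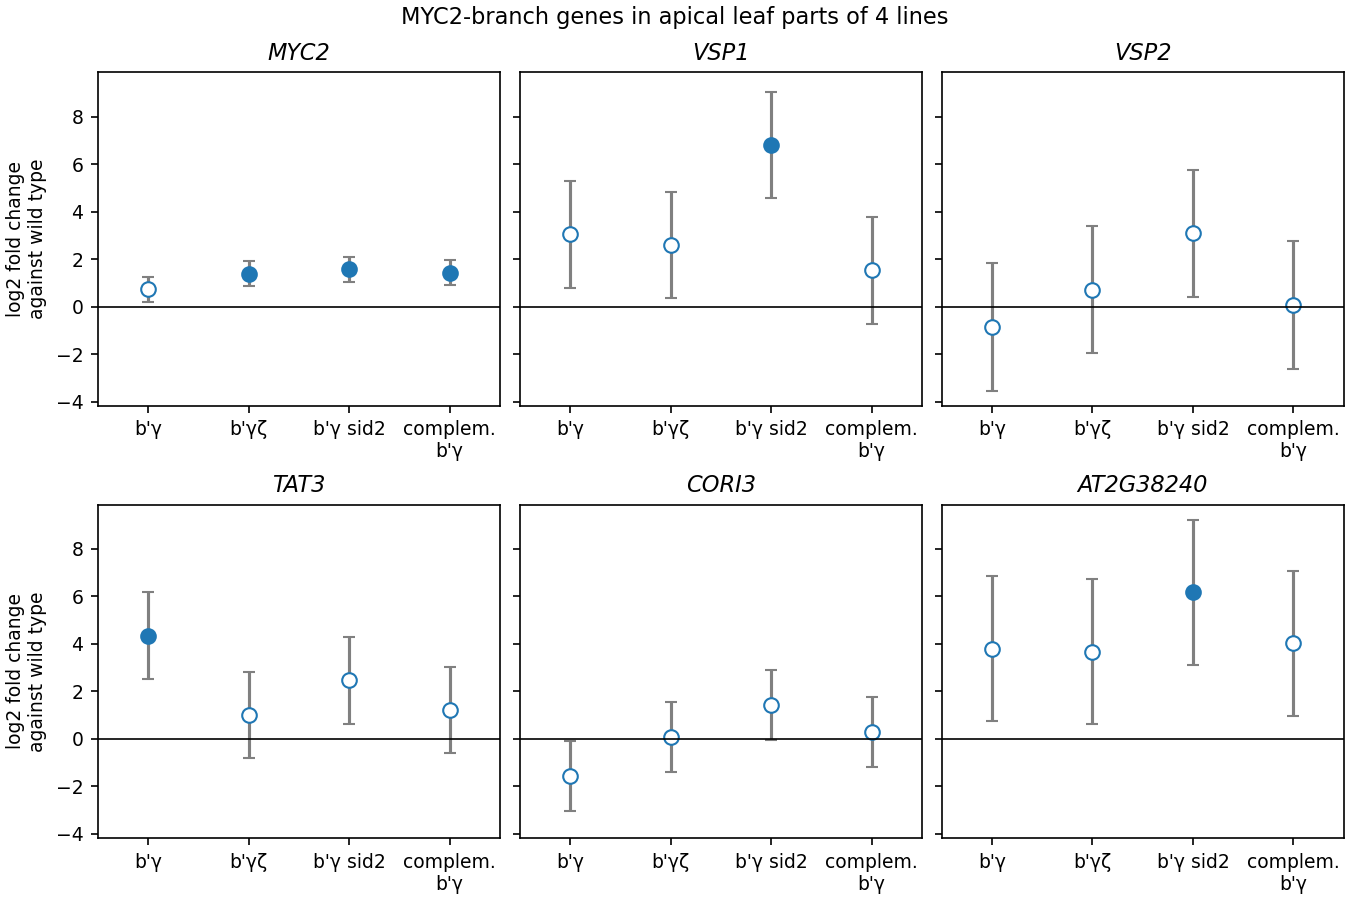
Log2 fold change of each gene of the MYC2 branch in apical parts of 4 lines against wild type. Circles are the authors' deposited values, bars the 95% interval under the largest allowed error, and filled circles the 6 calls: MYC2 in 3 lines, TAT3 in b'γ, and VSP1 and AT2G38240 in b'γ sid2.

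VSP1 and VSP2 encode vegetative storage proteins, acid phosphatases of the haloacid dehalogenase family that accumulate in jasmonate-treated leaves, and VSP2 is known to slow insect growth. Both genes have 3 exons on the minus strand of chromosome 5, VSP1 at 8507590 to 8509201 and VSP2 at 8500468 to 8502224, with 5365 bases between them. Their coding sequences of 813 and 798 bases were identical at 719 of 795 aligned bases (90.4%), and the longest identical run was 54 bases. Reads from identical runs can belong to either gene, so a transfer of reads from one to the other is possible and was not tested.

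VSP1 stood at a log2 fold change of 3.04 for b'γ, 2.60 for b'γζ, 6.80 for b'γ sid2 and 1.52 for the complemented line, per the authors' deposited table. It was above wild type in every line, and b'γ sid2 stood apart from the other three. VSP1 rose 111.0-fold in b'γ sid2 (95% interval of the log2 change 4.56 to 9.04, adjusted p of 1.46e-05 in the largest-error test). The 8.21-fold difference in b'γ missed the threshold (0.80 to 5.28, adjusted p of 0.0549), as did those in b'γζ (adjusted p of 0.363) and the complemented line (adjusted p of 1.0). With the equal-parts SD, which holds if lines differ as much in the basal as in the apical parts, the difference of VSP1 in b'γ passed (adjusted p of 0.00428).

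Set against the other lines, VSP1 rose in b'γ sid2 by 3.76 over b'γ (adjusted p of 0.0134), by 4.19 over b'γζ (adjusted p of 0.0326) and by 5.28 over the complemented line (adjusted p of 0.00192), each with an SE of 1.11. The order from wild type through the complemented line, b'γζ and b'γ to b'γ sid2 therefore held a single step, the last, that passed the test. VSP1 was the only one of the 6 genes that was called in b'γ sid2 against each of the other 4 lines.

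VSP2 stood at -0.86 for b'γ, 0.72 for b'γζ, 3.09 for b'γ sid2 and 0.06 for the complemented line. Its value in b'γ was below wild type, where that of its neighbour VSP1 was above it, and its value in the complemented line was close to wild type. None of the 4 differences from wild type passed the largest-error test, including the 8.51-fold one in b'γ sid2 (95% interval of the log2 change 0.41 to 5.77, adjusted p of 0.22). Against b'γ, however, VSP2 rose 15.5-fold in b'γ sid2 (log2 difference 3.95, SE 1.33, adjusted p of 0.033). The allowed SD between pools of VSP2 ran from 0.84 to 2.1, a wide range, and at the equal-parts SD of 1.11 VSP2 also passed in b'γ sid2 against wild type (adjusted p of 0.000845).

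TAT3 is annotated as a tyrosine aminotransferase, an enzyme that removes the amino group of tyrosine, and its transcript is widely used as a jasmonate marker. It has 7 exons on the minus strand of chromosome 2, at 10582074 to 10585216. TAT3 stood at 4.35 for b'γ, 1.0 for b'γζ, 2.46 for b'γ sid2 and 1.22 for the complemented line, in the authors' deposited table. Its highest value was thus in b'γ, the line in which MYC2 was closest to wild type. TAT3 rose 20.4-fold in b'γ (95% interval of the log2 change 2.52 to 6.17, adjusted p of 0.000459).

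From b'γ, TAT3 fell by 3.35 in b'γζ (SE 0.90, adjusted p of 0.00853) and fell by 3.13 in the complemented line (adjusted p of 0.0143). Its log2 difference of -1.89 between b'γ sid2 and b'γ did not pass (adjusted p of 0.175), but passed at the equal-parts SD (adjusted p of 0.0264). TAT3 in b'γ sid2 was 5.51-fold above wild type (adjusted p of 0.103, and 0.0103 at the equal-parts SD), and the values of b'γζ and the complemented line differed by 0.22.

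CORI3, named for its induction by the bacterial toxin coronatine, which mimics the hormone, encodes a cystine lyase related to aminotransferases. It has 7 exons on the plus strand of chromosome 4, at 12310379 to 12313212. CORI3 stood at -1.55 for b'γ, 0.08 for b'γζ, 1.44 for b'γ sid2 and 0.28 for the complemented line. Values of b'γ and b'γ sid2 lay on opposite sides of wild type, with those of the other lines close to it. None of the 4 was called against wild type, with adjusted p of 0.166 in b'γ and 0.385 in b'γ sid2.

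Between b'γ and b'γ sid2, CORI3 rose 7.94-fold (log2 difference 2.99, 95% interval 1.51 to 4.47, adjusted p of 0.00244 in the largest-error test). CORI3 was also the only one of the 6 genes for which the authors' test found line differences that differ between leaf parts (corrected interaction p = 0.00211). That makes its allowed SD wide, from 0.42 to 1.15. At its equal-parts SD of 0.56, CORI3 passed at 2-fold in b'γ (adjusted p of 0.000267) and in b'γ sid2 (adjusted p of 0.00195).

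AT2G38240 encodes an oxygenase that depends on 2-oxoglutarate and iron. Enzymes of its family hydroxylate jasmonic acid and so draw on the pool from which the active hormone is made. The gene has 3 exons on the minus strand of chromosome 2, at 16012535 to 16014991. AT2G38240 stood at 3.80 for b'γ, 3.67 for b'γζ, 6.17 for b'γ sid2 and 4.02 for the complemented line, per the authors' deposited table. All 4 values were far above wild type, and among b'γζ, b'γ and the complemented line the largest difference was -0.35 (b'γζ minus the complemented line).

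The 72.0-fold rise of AT2G38240 in b'γ sid2 passed the largest-error test (95% interval of the log2 change 3.11 to 9.23, adjusted p of 0.00449). The 13.9-fold, 12.8-fold and 16.2-fold differences in b'γ, b'γζ and the complemented line did not (adjusted p of 0.0849, 0.323 and 0.311), although each interval lay above 0 and each passed at the equal-parts SD (adjusted p of 0.00427, 0.0255 and 0.0179). AT2G38240 had the largest allowed SD between pools of the 6 genes, from 1.49 to 2.39, against a median upper bound of 0.66 over all listed genes. No comparison of AT2G38240 between the lines other than wild type was called, and b'γ sid2 stood 2.37 above b'γ (SE 1.51, adjusted p of 0.383).

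Counted together, 1 of the 6 genes rose in b'γ, TAT3, where 7.92% of all listed genes were called higher and 6.4% lower. In b'γζ 1 rose, MYC2, against 1.17% of listed genes. In the complemented line 1 rose, also MYC2, against 0.285%. In b'γ sid2 3 rose, MYC2, VSP1 and AT2G38240, against 2.51%. No gene of the 6 fell in any line against wild type, where 0.647% of listed genes fell in b'γζ, 0.433% in the complemented line and 2.54% in b'γ sid2.

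The median log2 fold change of the 6 genes was 1.88 for b'γ, 1.2 for b'γζ, 2.78 for b'γ sid2 and 1.33 for the complemented line, and the median of all listed genes lay between -0.008 and 0.018. By size alone, all 6 genes were at least 2-fold above wild type in b'γ sid2, where 6.55% of listed genes were and 5.56% were as far below. The same held for 3 of the 6 in b'γ (17.0% of listed genes), 4 in b'γζ (4.69%) and 4 in the complemented line (2.63%). CORI3 in b'γ was the single value at least 2-fold below wild type, where 16.2% of listed genes were below for b'γ, 2.92% for b'γζ and 2.22% for the complemented line. With the equal-parts SD in place of the largest one, the calls against wild type were 4 in b'γ, with CORI3 among them in the downward direction, 2 in b'γζ, 2 in the complemented line and 6 in b'γ sid2. The share of listed genes called with the equal-parts SD is not given here, so these counts cannot be set against it.

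Relative to b'γ, 3 of the 6 genes rose in b'γ sid2, VSP1, VSP2 and CORI3, where 6.71% of listed genes were called higher and 7.49% lower. In b'γζ, 0 rose and 1 fell, TAT3, where 4.49% of listed genes rose and 6.2% fell. The complemented line gave the same count, again TAT3, with 4.36% of listed genes higher and 6.67% lower. Between b'γ sid2 and b'γζ, and between b'γ sid2 and the complemented line, VSP1 alone was called, where 0.368% and 0.856% of listed genes were called higher and 0.68% and 0.565% lower. Between b'γζ and the complemented line 0 of the 6 were called by the largest-error test, against 0.4% of listed genes higher and 0.0549% lower. In that pair 0 of the 6 had an unadjusted p under 0.05, and 0 passed with the equal-parts SD. In the other pairs the equal-parts SD called 4 of the 6 in b'γ sid2 against b'γ, TAT3 being added as lower, and 2 in both b'γζ and the complemented line against b'γ, CORI3 being added as higher. It called 3 in b'γ sid2 against b'γζ and 3 against the complemented line, VSP2 and CORI3 being added as higher. Again no share of listed genes called with the equal-parts SD is given here.

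Size alone gave wider counts in these pairs. From b'γ to b'γ sid2, 4 of the 6 genes were at least 2-fold higher, AT2G38240 in addition to the 3 called, and TAT3 was as far lower, against 16.1% and 15.8% of listed genes. From b'γ to b'γζ, VSP2 and CORI3 were higher and TAT3 lower (13.8% and 14.5% of listed genes), and from b'γ to the complemented line CORI3 was higher and VSP1 and TAT3 lower (12.9% and 15.1%). In b'γ sid2, every one of the 6 genes except MYC2 was at least 2-fold above b'γζ (3.41% of listed genes higher, 3.51% lower) and above the complemented line (4.16% higher, 2.89% lower). VSP1 was the single such gene between b'γζ and the complemented line, where 2.27% of listed genes were higher and 1.24% lower.

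The 6 genes did not share a single pattern across lines. The lowest value of VSP2 and CORI3 in the 5 lines was in b'γ, while TAT3 had its highest there. MYC2, VSP1, VSP2, CORI3 and AT2G38240 had their highest value in b'γ sid2. By Euclidean distance over the 4 fold changes, the closest pair of the 6 was VSP2 and CORI3 (1.91), followed by MYC2 and VSP2 (2.67), and the farthest was CORI3 and AT2G38240 (8.82). VSP1 and VSP2, the close copies, stood 5.89 apart. The fold changes were not scaled, so these distances reflect the size of change as well as the pattern over lines.

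The largest-error calls rest on apical parts, and the authors' p-values cover both parts. All 6 genes had a corrected genotype p under 0.05, which is the condition for being listed (100.0% of listed genes), with the smallest in MYC2 (2.89e-11) and the largest in AT2G38240 (5.98e-07). Leaf part gave a corrected p under 0.05 for 4 of the 6 genes, against 54.1% of listed genes: VSP1 (8.66e-06), TAT3 (0.00104), CORI3 (0.0132) and VSP2 (0.0157). MYC2 (0.961) and AT2G38240 (0.291) did not pass. The direction of a leaf-part difference is not part of the values used here. The interaction passed for 1 of 6, CORI3, against 42.4% of listed genes.

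**Figure D2:**
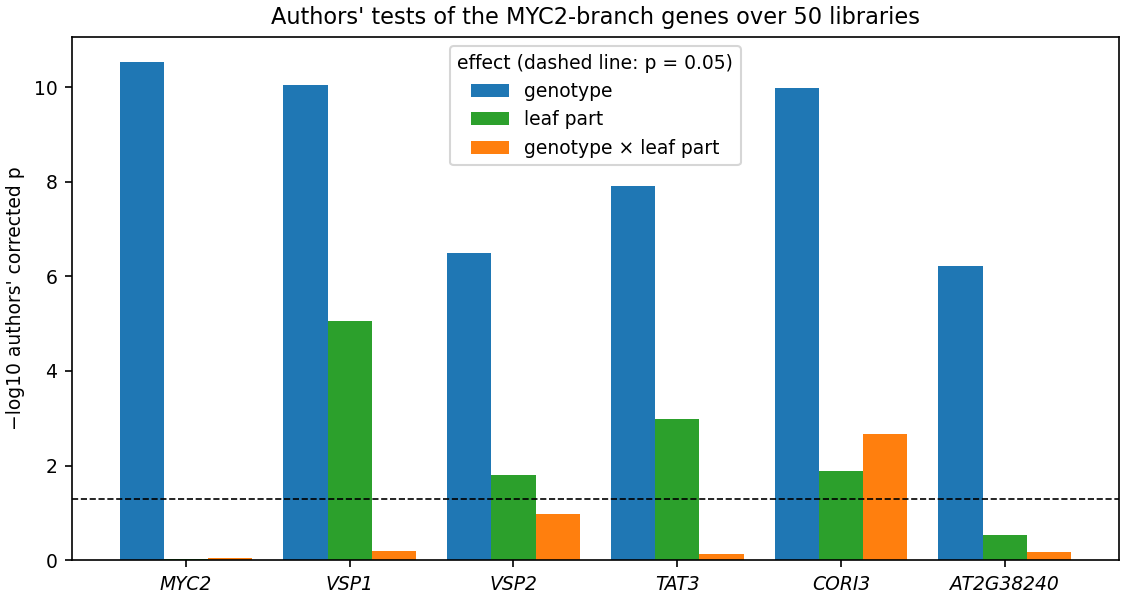
The authors' corrected p-values of the 6 genes for genotype, leaf part and their interaction, each as −log10, with a dashed line at 0.05. Genotype passed for all 6, leaf part for 4 and the interaction for CORI3 alone.

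Taken as F values, the genotype and interaction tests also bound how basal line differences compare in size with apical ones, though the basal values themselves were not used here. For MYC2 the basal line differences were between 0.82 and 1.22 times as large as the apical ones. The range was 0.71 to 1.41 for VSP1, 0.69 to 1.45 for TAT3 and 0.62 to 1.61 for AT2G38240. For VSP2 it ran from 0.40 to 2.49 and for CORI3 from 0.36 to 2.75, so for these genes the parts could differ in size by more than 2-fold.

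The same F values bound how alike the pattern over lines was in both parts, as a cosine that is 1 for proportional patterns. It was at least 0.98 for MYC2, 0.94 for VSP1, 0.93 for TAT3 and 0.90 for AT2G38240, against a median lower bound of 0.626 over all listed genes. Only 1.85% of listed genes had a bound as high as that of MYC2. For VSP2 and CORI3 the bounds were 0.69 and 0.64. Under the model read from the p-values, the line differences of MYC2, VSP1, TAT3 and AT2G38240 were therefore also present, with a like pattern, in the basal parts, which in b'γ had no visible symptoms.

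**Figure D3:**
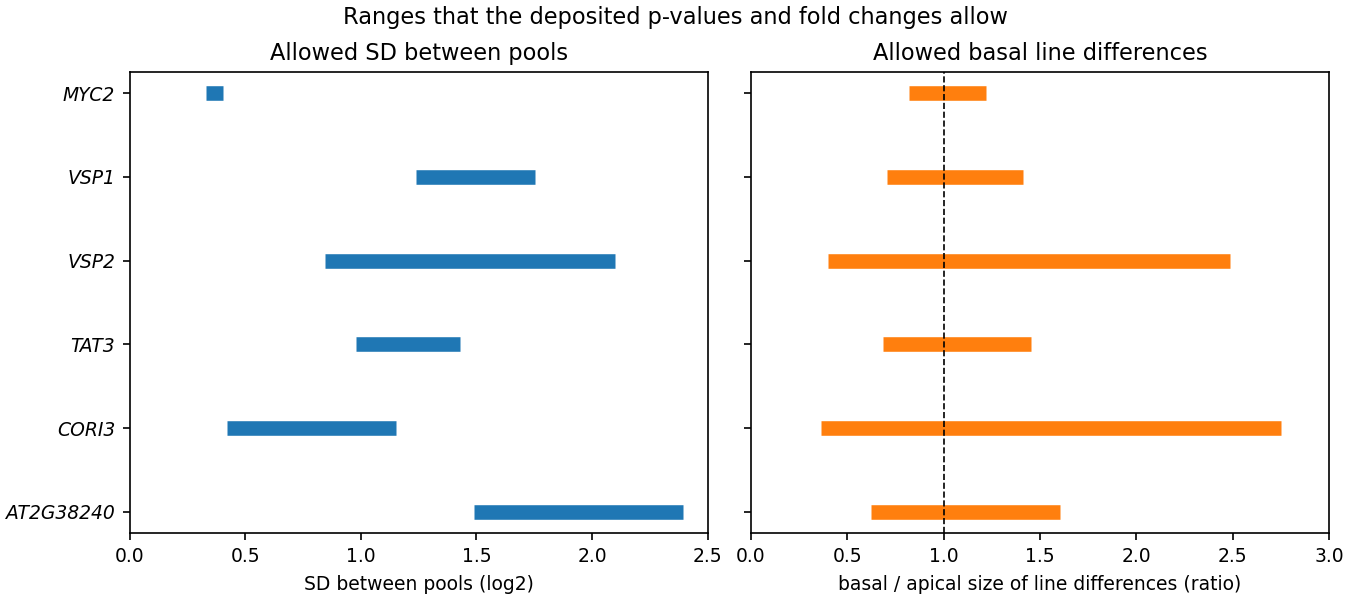
Ranges allowed by the deposited p-values and fold changes. Left, the SD between pools on the log2 scale, from 0.33 to 0.40 for MYC2 up to 1.49 to 2.39 for AT2G38240; right, the size of basal line differences over apical ones, with a dashed line at equal size.

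Other jasmonate genes were read from 6 lists with 70 genes, of which 65 were in the table. Of these 65, 17 rose in b'γ, 17 in b'γ sid2, 6 in b'γζ and 2 in the complemented line, and 0 fell in any of them by the largest-error test. The shares of all listed genes called higher were 7.92%, 2.51%, 1.17% and 0.285% in the same order. Those called lower were 6.4%, 2.54%, 0.647% and 0.433%. With the equal-parts SD the numbers of the 65 that rose were 25, 33, 24 and 19, so the low counts of b'γζ and the complemented line depend on the error used. The share of all listed genes called with that SD is not given here. By size alone, 28 were at least 2-fold higher and 2 as far lower in b'γ (17.0% and 16.2% of listed genes). The counts were 38 higher and 1 lower in b'γ sid2 (6.55% and 5.56%). In b'γζ 31 were higher (4.69%, with 2.92% lower) and in the complemented line 29 (2.63%, with 2.22% lower), with 0 lower in both. The median log2 fold change of the 65 genes was 0.69 for b'γ, 0.90 for b'γζ, 1.25 for b'γ sid2 and 0.92 for the complemented line. The authors' corrected interaction p was under 0.05 for 18 of the 65, against 42.4% of listed genes.

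Upstream of MYC2, the perception and repression list held 17 genes. The receptor gene COI1 stood between 0.01 and 0.21 in the 4 lines, and it was called in no line against wild type. The repressor genes JAZ2 and JAZ5, which MYC2 itself induces in a feedback loop, rose in all 4 lines, JAZ2 by 1.06, 1.52, 1.15 and 1.23 and JAZ5 by 2.84, 3.06, 2.52 and 2.36, in the order used above. JAZ10 rose by 3.67 in b'γ, JAZ7 by 4.23 in b'γζ and JAZ9 by 1.32 in b'γ sid2. JAZ8 had values from 2.03 to 3.95 and AT3G22275 from 1.34 to 3.69, with no call. The corepressor gene TPL rose by 1.17 in b'γ and 1.08 in b'γ sid2, and MED25, a Mediator subunit that binds MYC2, rose by 1.08 in b'γ and fell by 1.09 from there to b'γ sid2. MED25 also fell by 1.02 from b'γ to b'γζ. Its difference of -0.97 from b'γ to the complemented line passed the largest-error test (adjusted p of 0.0386) and was under 2-fold.

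Of the 6 related basic helix-loop-helix genes, JAM1, whose product competes with MYC2 and represses its targets, rose by 1.25 in b'γ sid2 and 1.31 in b'γζ. In the complemented line JAM1 passed the largest-error test at 0.915, under 2-fold (adjusted p of 0.00128). MYC4, which shares functions with MYC2, was at -0.66 in b'γ, which passed under 2-fold (adjusted p of 0.00316). From b'γ, MYC4 rose by 1.07 in the complemented line and 1.45 in b'γ sid2. Its difference of 0.83 from b'γ to b'γζ passed under 2-fold (adjusted p of 0.000295). MYC3 stood between 0.08 and 0.21. NIG1 ranged from -1.35 to 0.68 and JAM2 from 0.04 to 0.59, with no call.

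Among hormone synthesis genes, 13 of 16 were in the table. The lipoxygenase gene LOX2 rose by 1.94 in b'γ sid2 and stood 1.75 above b'γ there. LOX3 rose by 1.90 and the reductase gene OPR3 by 1.45 in b'γζ. The cyclase gene AOC3 rose by 2.30 in b'γ and was at 2.39 in b'γζ with no call. KAT2, a peroxisomal thiolase gene, fell by 1.2 from b'γ to b'γ sid2. Its differences from b'γ of -0.98 in b'γζ and -0.90 in the complemented line passed the largest-error test under 2-fold (adjusted p of 1.82e-06 and 5.73e-06). LOX4 reached 3.06 in b'γζ and the lipase gene DAD1 2.70 in b'γ sid2, with no call.

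Hormone oxidation and inactivation was covered by 9 of 10 genes. Of the relatives of AT2G38240, JRG21 rose by 8.06 in b'γ and fell by 4.99 from there to b'γ sid2, and AT5G05600 rose by 2.31 in b'γ. JRG21 also fell from b'γ to b'γζ (-7.17, adjusted p of 5.29e-05) and to the complemented line (-6.68, adjusted p of 0.000131). The fall of JRG21 from b'γ was therefore not particular to b'γ sid2. JRG21 and AT2G38240 thus had their highest values in different lines. CYP94B1, whose product oxidizes the active conjugate, rose by 3.91 in b'γ sid2. Its values of 3.59 in b'γζ and 3.74 in the complemented line were nearly as high and were not called. CYP94B3 reached 3.58 and CYP94C1 2.81 with no call. The amidohydrolase genes IAR3 and ILL6 rose in b'γ (2.77 and 1.25) and in b'γ sid2 (1.76 and 1.31). JMT, which methylates jasmonic acid, rose by 3.06 from b'γ to b'γ sid2.

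Of 10 further wound-induced and MYC2-branch genes, 9 were in the table. NATA1, which acetylates ornithine, rose by 5.47 in b'γ and 4.18 in b'γ sid2, and like TAT3 it fell by 4.08 from b'γ to b'γζ and fell by 2.97 from b'γ to the complemented line. In b'γ sid2 the chlorophyllase gene CLH1 rose by 2.54, the ribonuclease gene RNS1 by 3.25 and the lectin gene JR1 by 2.69. Like VSP1, VSP2 and CORI3, CLH1 and JR1 rose from b'γ to b'γ sid2, by 2.28 and 2.53. From b'γ to the complemented line CLH1 was called too, with a rise of 1.39. In that pair CORI3 stood 1.83 higher (adjusted p of 0.0976), VSP2 0.92 higher and VSP1 at -1.52, with no call. ANAC055, a MYC2-regulated NAC factor also tied to senescence, rose by 6.11 in b'γ and fell by 7.31 from there to b'γ sid2. Its differences from b'γ of -4.94 in b'γζ and -5.13 in the complemented line were not called. ANAC019 reached 3.34 in b'γ and BGLU18 1.74 in b'γ sid2, with no call.

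**Figure D4:**
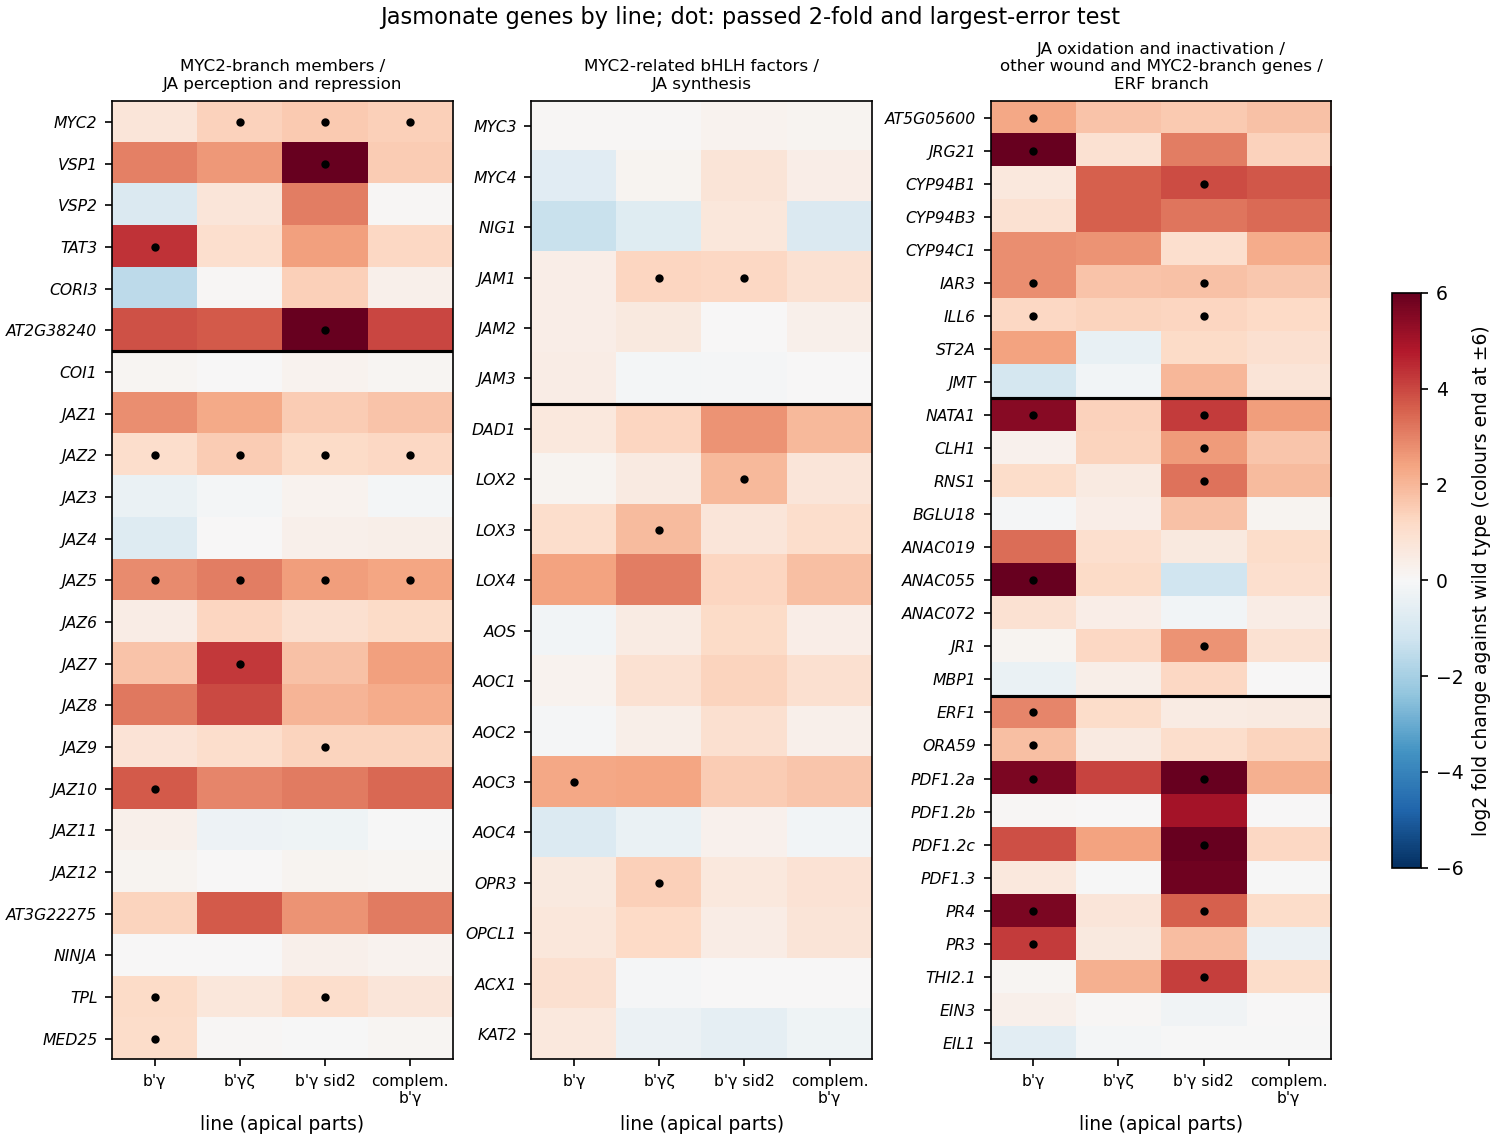
Log2 fold changes against wild type of the 6 MYC2-branch genes and 65 further jasmonate genes in 4 lines, red above and blue below wild type, with dots on calls. Dots of JAZ2 and JAZ5 run through all 4 lines, and most others stand in b'γ and b'γ sid2.

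The ERF branch held 11 genes, all in the table, of which 5 rose in b'γ and 4 in b'γ sid2, against 7.92% and 2.51% of listed genes. In b'γζ and the complemented line 0 rose, against 1.17% and 0.285%. By size alone 4 and 5 of the 11 were at least 2-fold higher there, against 4.69% and 2.63%. The defensin gene PDF1.2a rose by 5.64 and 8.74 and the chitin-binding protein gene PR4 by 5.65 and 3.60, while ERF1 (2.92), ORA59 (1.78) and the chitinase gene PR3 (4.21) rose in b'γ and the defensin gene PDF1.2c (8.77) and the thionin gene THI2.1 (4.14) in b'γ sid2. From b'γ to b'γ sid2, THI2.1 rose by 4.01, ERF1 fell by 2.45 and PR3 fell by 2.38. From b'γ to b'γζ, PR4 fell by 4.91 and PR3 by 3.62. From b'γ to the complemented line, ERF1 fell by 2.39, PR4 by 4.56 and PR3 by 4.56. PDF1.3 at 5.86 and PDF1.2b at 4.97 in b'γ sid2 were not called. The PDF genes form a family, and whether reads were shared between its members was not tested.

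**Figure D5:**
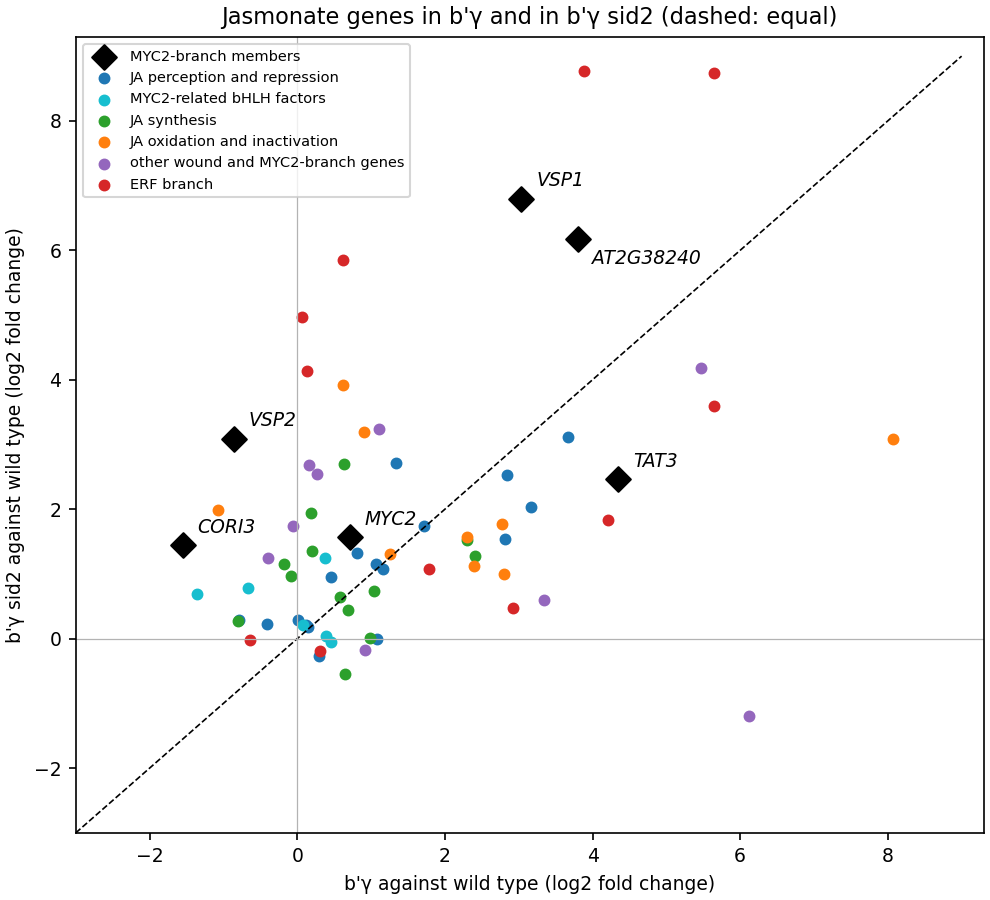
Log2 fold change against wild type in b'γ (horizontal) and in b'γ sid2 (vertical) for the 6 MYC2-branch genes, drawn as diamonds, and the other jasmonate genes. TAT3 lies below the dashed line of equal values, and VSP1, VSP2, CORI3, AT2G38240 and MYC2 lie above it; the axes share their wild-type pools.

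Markers of other leaf cell types were read beside these values, since in bulk samples fewer cells of a type and less RNA per cell cannot be told apart. Of 12 marker genes, 11 were in the table. From b'γ to b'γ sid2, the comparison in which VSP1, VSP2 and CORI3 rose, the myrosin cell genes TGG1 (3.60) and TGG2 (4.89) and the trichome regulator GL2 (1.66) rose as well, the guard cell channel gene KAT1 fell by 1.93. FAMA, a stomatal and myrosin cell regulator, passed the test at a log2 difference of 0.37, under 2-fold (adjusted p of 0.0408), and the other 6 did not pass. In b'γ, where TAT3 rose, KAT1 rose by 1.38 and the guard cell channel gene GORK fell by 2.07. GORK also fell in b'γ sid2, by 1.74, where GL2 rose by 1.05. The fall of KAT1 from b'γ was not particular to b'γ sid2. From b'γ to b'γζ, KAT1 fell by 1.96 and GORK rose by 1.54. From b'γ to the complemented line, KAT1 fell by 1.74 and GORK rose by 1.56. In b'γζ and the complemented line, where MYC2 rose, 0 of the 11 were called against wild type by the largest-error test. Few listed genes were called there: 1.17% higher and 0.647% lower in b'γζ, and 0.285% and 0.433% in the complemented line. A count of 0 among 11 genes is thus near the share of all listed genes. The part of these cell types in the changes of the 6 genes was not tested, and levels of the markers are not part of the values used.

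For each of the 6 genes, the 3 listed genes with the smallest Euclidean distance over the 4 fold changes were taken as its nearest neighbours. Those of MYC2 were AtHsp90-1, a heat shock protein gene (distance 0.22), the ubiquitin ligase gene PUB22 (0.36) and AT3G51930 (0.37). Those of VSP1 were PDF1.2c (2.18), AT2G38240 (2.89) and the ERF factor gene AT5G21960 (2.91), so no listed gene lay close to it. VSP2 had AT3G28220 (0.71), GL3 (0.88) and the wax ester synthase gene WSD1 (0.98) nearest.

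Nearest to CORI3 lay TRY (0.36), CYCP2;1 (0.36) and AT1G75060 (0.38). TRY and GL3, the latter the second neighbour of VSP2, are transcription factors of trichome patterning. TAT3 lay nearest to AT1G29715, a pseudogene (0.56), the terpene synthase gene GES (0.61) and the calmodulin-like gene CAM8 (0.61). AT2G38240 had VSP1 (2.89), TPS02, another terpene synthase gene (3.10), and TIFY9, which is JAZ10 (3.20), as its nearest genes. These distances describe 4 values per gene and carry no test.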

How the data were processed

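RNA of 50 pools of leaf parts was sequenced with a stranded kit, per the labels' protocols. Samples were grouped by the line and leaf part in their titles. The submitters' processing notes name bcl2fastq, DESeq and the build TAIR10, with no versions; the aligner and counter are not given in the sources used here. The 1 file used holds the authors' deposited log2 fold changes (4 columns) and each deposited p-value for genotype, tissue and interaction, uncorrected and corrected (6 columns). The header names no log base; base 2 was read from exact steps of 0.2 in low genes, 1 doubling in 1 of 5 libraries. The correction was read as Benjamini-Hochberg over 25801 genes. A test on counts had been planned in case counts were given; no counts were used. Depth is unknown.

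F values were recovered from the uncorrected p-values at 4 and 40 degrees of freedom, which the authors' model was taken to have: of 69 genes at 0 in 3 lines whose genotype and interaction F agree within 2%, 66 have a tissue F equal to them too. Together with the 4 fold changes they limit the residual variance, given that no 2 lines differ by over 20 log2 units. The largest-error test is a contrast with the largest variance, adjusted by Benjamini-Hochberg over 25801 genes; the equal-parts variance is an alternative. Intervals are 95%. Values between lines other than wild type are differences of deposited values. The method was tested on simulated data.

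The 6 genes, the lists and the tests were chosen with earlier results of these data known. Named were all 6 genes, the 3 nearest genes of each, the called genes of each list with the 2 largest others, and the context genes SAG12, PR1, ICS1, B'ζ and B'γ; COI1, MYC3 and other genes were named outside this rule. Promoters and coding sequences came from RefSeq on TAIR10.1; all 6 identifiers matched. Coding identity replaced a planned protein comparison. Alternatives were the equal-parts variance, no or a 4-fold size limit, centring, Bonferroni adjustment, a corrected p under 0.01, and, added later, 2-fold alone and a 1000-base promoter window. Python 3.11.15, numpy 2.4.6, scipy 1.17.1, pandas 2.3.3, biopython 1.88 and matplotlib 3.10.9 were used.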

Additional observations from a re-analysis of the deposited data

Results flagged for a closer look

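CORI3 was flagged because its differences between lines were not the same in apical and basal leaf parts: the authors' corrected interaction p was 0.00211, the only one of the 6 genes under 0.05. The direction in which the parts differ was not among the values used. The bounds from the F values allow basal line differences from 0.36 to 2.75 times the apical ones. No group had values per pool, so no gap of a single pool from the others was examined.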

How the results depend on the processing

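No paired analysis was possible because the deposited table used here gives no values per library; for the same reason no pool was left out in turn and no filter on low values was tried. Over the 6 genes, 10 comparisons and 7 alternatives, 361 values kept their direction and their side of the threshold, 44 passed newly, 13 no longer passed and 2 changed sign. Both sign changes came from centring on reference genes: AT2G38240 in b'γζ against b'γ became 0.105, and MYC2 in b'γζ against the complemented line became 3.6e-05, both with an adjusted p of 1.0. With the equal-parts variance the number of genes called became 4, 2, 6 and 2 against wild type (b'γ, b'γζ, b'γ sid2, complemented line), 2 for b'γζ, 4 for b'γ sid2 and 2 for the complemented line against b'γ, and 3 for b'γ sid2 against b'γζ as against the complemented line. The share of all listed genes called with the equal-parts variance is not given here. With no size limit b'γ gave 2, MYC2 being added. A 4-fold limit left 0 in b'γζ and 0 in the complemented line, since MYC2 changed by less. Bonferroni adjustment left 0 in 7 of the 9 comparisons that had a call, b'γ and b'γζ against wild type, all 3 against b'γ and both of b'γ sid2 with b'γζ and the complemented line, and kept MYC2 and VSP1 in b'γ sid2 and MYC2 in the complemented line. By 2-fold size alone, chosen after seeing the data, the numbers were 4, 4, 6 and 4 against wild type, 3, 5 and 3 against b'γ, 5 for b'γ sid2 against b'γζ, and against the complemented line 1 for b'γζ and 5 for b'γ sid2. Jasmonate list genes called higher became 28, 31, 38 and 29 by size alone, and with the equal-parts variance 25 for b'γ, 24 for b'γζ, 33 for b'γ sid2 and 19 for the complemented line. A corrected tissue p under 0.01 left 2 genes, VSP1 and TAT3. A promoter window of 1000 bases held CACATG in 2 genes and CACGTT in 4. Limits are the unknown depth, the listing of genes with a genotype effect alone, and the read sharing of VSP1 and VSP2.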
